A study of Mus musculus with 18 samples.

Results

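This report describes 10 genes of extracellular proteolysis in microglia: the matrix metalloproteinases Mmp2, Mmp9, Mmp12 and Mmp14, the aggrecanase-type metalloproteinase Adamts1, the urokinase plasminogen activator Plau and its receptor Plaur, and the inhibitors Timp2, Slpi and Serpine2. The genes were chosen by name, with earlier results of these data known, so their shares beside those of all genes are descriptive. A gene was followed through its probe set, the group of array probes annotated to that symbol alone. With 1 probe set each, 9 of the 10 genes were among the 22180 genes tested. Serpine2 was not analysed here.

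Microglia, which are the brain's own macrophages, were taken from untreated, healthy C57Bl/6 mice and sorted as CD45-positive, CD11b-positive and Gr1-negative cells. They came from the cortex or from the corpus callosum, a white matter tract myelinated postnatally, on day 3 (P3) or day 7 (P7) after birth or in the adult. Each of the 6 groups held 3 expression arrays, 18 in all. The labels give neither the sex of the mice nor the number of animals behind an array, so p-values measure only the spread between these samples, which may be technical. Labels of P3 arrays start with another code than those of P7 and adult arrays, so in a comparison of P7 with P3 the age and the code cannot be told apart.

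Proteases outside the cell cut matrix proteins, growth factors and receptors. Most are made as inactive precursors, and their activity is held in check by inhibitors that bind them. In the plasminogen system, urokinase bound to its receptor on the cell surface turns plasminogen into plasmin, a broad serine protease that also activates metalloproteinases. On the membrane, Mmp14 together with Timp2 activates the precursor of Mmp2, while Timp2 in excess inhibits metalloproteinases. Slpi inhibits serine proteases such as neutrophil elastase, and macrophages, neutrophils and epithelial cells can make it. An array measures transcripts and carries no information on the activity of these enzymes.

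Levels are log2 values, and a difference of 1 is a doubling on this scale. Array medians ranged from 5.58 to 5.74 over the 18 arrays. Plau, Timp2, Mmp2, Adamts1, Plaur and Slpi were above the array median on 18 of 18 arrays and Mmp14 on 17, whereas Mmp9 was above it on 4 and Mmp12 on 1. All 9 measured microglia markers, among them P2ry12, Tmem119, Cx3cr1 and Csf1r, were above the median on every array. A value after ± is the standard error of a difference or the standard deviation of a level (n = 3 arrays per group), and adjusted p-values come from limma across all 22180 genes. Differences with an adjusted p under 0.05 were called. With 3 arrays against 3 an exact permutation test cannot give a two-sided p under 0.1.

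**Figure D1:**
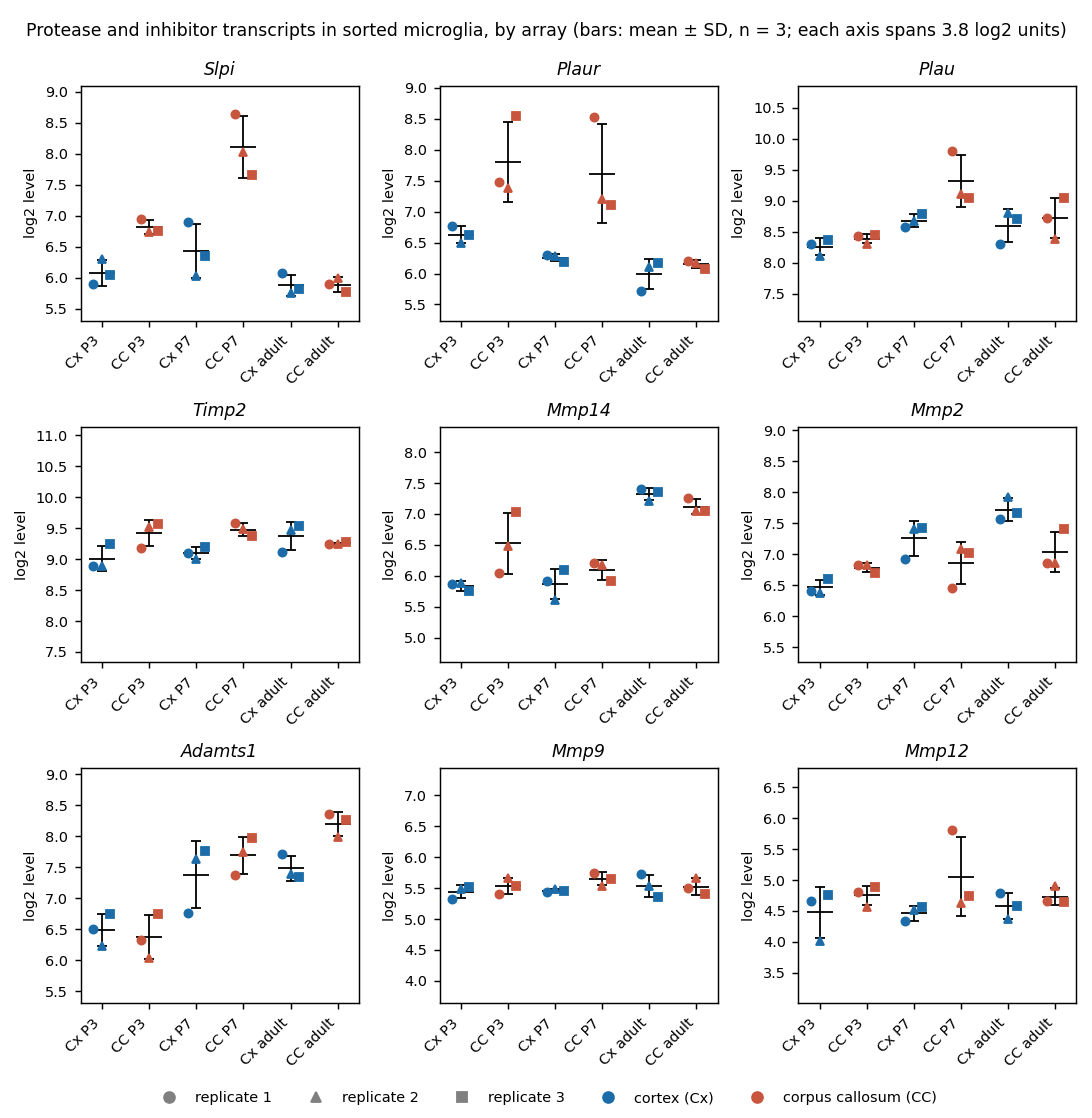
Log2 level of the 9 measured genes (vertical axes, each spanning the same width) on every array of the 6 groups (horizontal axes; Cx, cortex; CC, corpus callosum); points are arrays, shaped by replicate number, and bars are the mean and SD. The Slpi arrays of corpus callosum at P7 (7.66 to 8.65) lie above all other arrays, Mmp14 is highest in both adult groups, and Mmp9 stays between 5.32 and 5.75.

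The first question was whether these transcripts differ between white matter and cortical microglia, and at which age. Slpi was called at P7. In corpus callosum its log2 levels were then 8.65, 8.03 and 7.66 on replicates 1, 2 and 3, against 6.89, 6.03 and 6.35 in cortex. The groups did not overlap, and the lowest callosal array stood above the highest cortical one. Slpi was 3.23-fold higher in corpus callosum (difference 1.69 ± 0.22, adjusted p 4.65e-04). With only these 2 groups in the fit the difference was the same 1.69 and was not called (adjusted p 0.0655). A higher level in sorted cells can come from more RNA per cell or from more cells that carry the transcript, and such bulk samples do not tell these apart.

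At P3 Slpi stood at 6.94, 6.74 and 6.75 in corpus callosum and at 5.89, 6.30 and 6.04 in cortex. These groups did not overlap either, but the difference of 0.73 ± 0.22 was not called (adjusted p 0.14, 95% interval 0.28 to 1.19). In the adult the levels were 5.90, 6.00 and 5.76 in corpus callosum and 6.07, 5.75 and 5.81 in cortex, ranges that overlapped, with a difference of 0.01 ± 0.22 (95% interval -0.44 to 0.47). In the order of the 6 group means, callosum at P7 came first, with a mean 1.30 above that of callosum at P3. Below that step all neighbouring groups overlapped, down to the adult groups at 5.89 ± 0.12 and 5.88 ± 0.17.

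Plaur encodes the receptor that holds urokinase at the cell surface. Its levels at P7 were 8.53, 7.21 and 7.10 in corpus callosum and 6.30, 6.28 and 6.19 in cortex. At P3 they were 7.48, 7.39 and 8.55 in corpus callosum and 6.77, 6.49 and 6.63 in cortex. At both ages the callosal arrays were all above the cortical ones, and a single callosal array was more than a log2 unit above its group's others: replicate 1 at P7 and replicate 3 at P3. The differences, 1.36 ± 0.30 at P7 (2.56-fold, adjusted p 0.0604) and 1.18 ± 0.30 at P3 (2.26-fold, adjusted p 0.095), were not called. The 95% intervals ran from 0.72 to 2.0 and from 0.54 to 1.82. Without the outstanding arrays the differences were 0.90 (adjusted p 0.386) at P7 and 0.81 (adjusted p 0.229) at P3. In the adult, levels of 6.21, 6.17 and 6.08 in corpus callosum overlapped those of 5.72, 6.10 and 6.17 in cortex, and the difference was 0.16 ± 0.30.

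The sequences before the transcription starts of Slpi and Plaur are shown because these genes had the highest callosal differences of the 9 at P7. RefSeq promoter windows were matched for 7 of the 10 genes on assembly GRCm38.p6 (Plau, Mmp2 and Mmp9 being the others), and the 250 bases before the start are printed 5′ to 3′ in the direction of the gene. Slpi lies on the minus strand (chr2:164356508-164356757) and Plaur on the plus strand (chr7:24462233-24462482), where RefSeq's span of the gene begins further upstream.
Slpi: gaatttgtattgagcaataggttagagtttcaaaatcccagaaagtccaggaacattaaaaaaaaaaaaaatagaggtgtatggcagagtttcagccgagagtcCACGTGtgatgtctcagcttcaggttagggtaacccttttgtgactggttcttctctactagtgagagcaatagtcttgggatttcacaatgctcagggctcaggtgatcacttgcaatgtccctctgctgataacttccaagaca
Plaur: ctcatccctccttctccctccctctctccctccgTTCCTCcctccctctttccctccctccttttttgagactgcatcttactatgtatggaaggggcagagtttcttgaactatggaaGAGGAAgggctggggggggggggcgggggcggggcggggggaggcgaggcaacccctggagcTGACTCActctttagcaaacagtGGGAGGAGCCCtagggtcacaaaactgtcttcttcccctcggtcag
Capitals mark matches, on either strand, to 4 motifs: AP-1 (TGANTCA), PU.1 (GAGGAA), the E-box of MiT/TFE factors (CACGTG) and NF-kB (GGG and CC set apart by 5 bases of any kind). Slpi held a single match, the E-box, and at least 1 such match was found in 6.02% of 32841 promoter windows of this length. Plaur held 1 AP-1 match, 2 PU.1 matches and 2 NF-kB matches that overlap on opposite strands. At least 1 match to AP-1 was found in 6.75% of windows, to PU.1 in 23.3% and to NF-kB in 45.8%. A match describes letters and does not show that a factor binds there.

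Plau encodes urokinase, the ligand of the Plaur protein and the enzyme that activates plasminogen. It was abundant in every group, and its highest level was again in corpus callosum at P7, at 9.81, 9.11 and 9.04 against 8.58, 8.67 and 8.79 in cortex. The groups did not overlap, but the difference of 0.64 ± 0.19 was not called (adjusted p 0.271, 95% interval 0.24 to 1.04). Replicate 1, the highest callosal array for Slpi and Plaur at P7, was also the highest for Plau and for Mmp12. At P3 (0.13 ± 0.19) and in the adult (0.12 ± 0.19) the regional ranges of Plau overlapped.

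Among the members of the membrane system that activates Mmp2, no regional difference was called at any age. Timp2 was the most even of the inhibitors and spanned 8.89 to 9.58 over all arrays. At P7 it stood at 9.58, 9.48 and 9.37 in corpus callosum and at 9.10, 9.01 and 9.19 in cortex, without overlap (0.38 ± 0.14, adjusted p 0.478). At P3 the difference was 0.42 ± 0.14 (adjusted p 0.2), and in the adult it was -0.11 ± 0.14. Mmp14 at P3 stood at 6.05, 6.49 and 7.03 in corpus callosum and at 5.87, 5.89 and 5.75 in cortex. These arrays did not overlap (0.69 ± 0.19, adjusted p 0.106), and without callosal replicate 1, the lowest of its group, the difference was 0.93 and passed (adjusted p 0.0243). Without callosal replicate 3, the highest of its group, the Mmp14 difference was 0.44 and was not called. The gelatinase gene Mmp2 had the opposite sign at the later ages, with -0.40 ± 0.19 at P7 (adjusted p 0.712) and -0.68 ± 0.19 in the adult (adjusted p 0.375). Its adult levels were 6.85, 6.85 and 7.41 in corpus callosum, all under the 7.57, 7.93 and 7.66 of cortex.

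Adamts1, a secreted protease that cuts proteoglycans such as versican and aggrecan, had its highest regional difference in the adult. Levels there were 8.36, 7.99 and 8.27 in corpus callosum and 7.71, 7.39 and 7.35 in cortex, without overlap (0.73 ± 0.24, adjusted p 0.447, 95% interval 0.23 to 1.23). At P7 (0.31 ± 0.24) and P3 (-0.12 ± 0.24) the groups overlapped. The gelatinase Mmp9 and the macrophage elastase Mmp12 were near or below the array medians, with ranges of 5.32 to 5.75 and 4.01 to 5.80 over all arrays. Their levels were not told apart from background, and a difference from such a level is uncertain in size. The highest regional values were 0.19 ± 0.12 for Mmp9 and 0.59 ± 0.24 for Mmp12, both at P7 and neither called (adjusted p 0.898 and 0.602). The Mmp12 value rested on replicate 1 at 5.80, while replicates 2 and 3 stood at 4.63 and 4.74.

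In counts, 1 of 9 genes was called at P7, Slpi, which was higher in corpus callosum; of all genes 0.451% were called and 0.446% were called higher. The callosal and cortical arrays did not overlap for 6 of the 9 genes at P7, as for 16.7% of all genes, and for 4 at P3, as for 15.8%. At P3 limma called 0 of 9 (0.505% of all genes), while 4 of 9 had an unadjusted p under 0.05, as did 12.8% of all genes. In the adult it called 0 of 9 (0.00451% of all genes), 2 of 9 had an unadjusted p under 0.05 (8.51% of all genes), and 2 did not overlap (12.8% of all genes). The median difference of the 9 genes was 0.32 at P3, 0.38 at P7 and 0.01 in the adult, beside 0.01, 0.00 and 0.01 over all genes. The sign was positive for 8 of 9 genes at P3 and at P7 and for 5 of 9 in the adult.

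**Figure D2:**
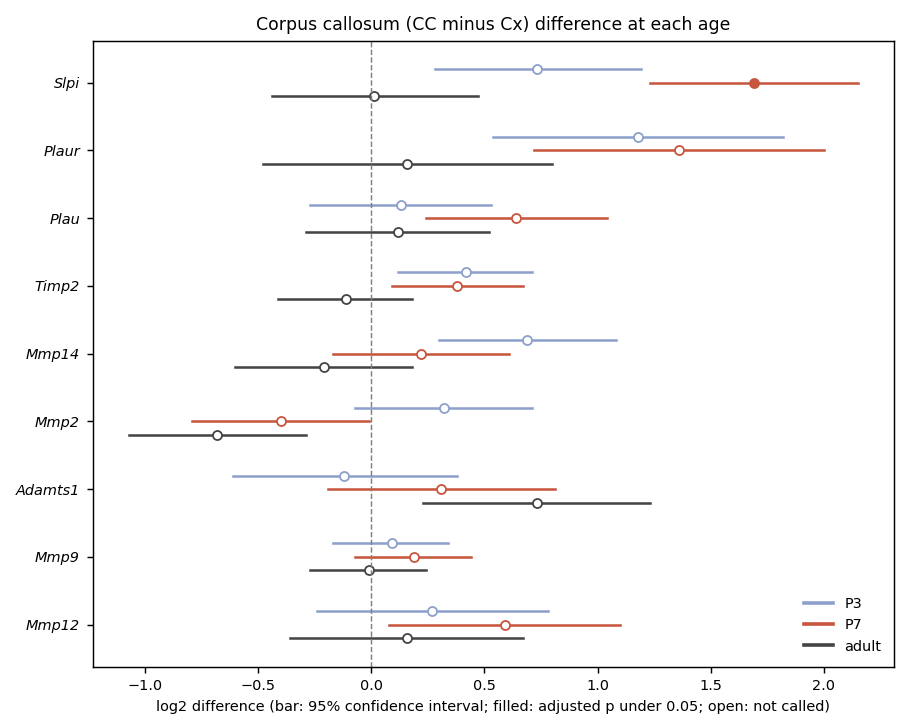
Log2 difference of corpus callosum minus cortex (horizontal axis) for each gene at P3, P7 and in the adult; points are limma estimates, bars 95% confidence intervals, filled points called and open points not called. Slpi at P7 (1.69) is the filled point, the Plaur intervals at P3 and P7 lie above 0 without a call, and most adult intervals include 0.

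Markers of other myeloid cells were read on the same arrays. The 11 neutrophil markers had 0 called between the regions at P7. Their summed log2 level was 9.61 to 10.10 in corpus callosum and 9.52 to 9.70 in cortex, with the highest value on callosal replicate 1. Ly6g, which encodes an antigen seen by Gr1 antibodies, stayed between 2.83 and 3.46 at P7, far below the array medians. Other markers of the list were higher on callosal replicate 1: S100a8 stood at 7.35 there against 5.35 and 5.20 on replicates 2 and 3 and 3.85 to 4.99 in cortex, and S100a9 at 6.92 against 4.61 and 5.08. The difference between regions was positive for 9 of the 11 markers. That array was also the highest for Slpi, Plaur and Plau, and the part of these cells was not tested. Without callosal replicate 1 the Slpi difference was 1.42 and passed (adjusted p 0.00241). At P3, callosal replicate 3 reached 11.12 for the neutrophil markers, against 9.78 and 9.87 on the others, and it was the array highest for Plaur and Mmp14. S100a8, a neutrophil and monocyte alarmin, stood at 8.76 on that array and at 8.19 on cortical replicate 1. On callosal replicate 3 S100a9 stood at 8.44, against 4.76 and 5.68 on replicates 1 and 2. Ngp stood there at 6.11 against 4.42 and 4.37, and Camp at 5.46 against 4.25 and 4.37. Ly6g was between 3.33 and 4.06 on all P3 arrays, below the array medians. The regional difference at P3 was positive for 8 of the 11 neutrophil markers. The regional difference at P3 was positive for 1 of 10 neuron markers (median -0.28). Of these 10, 2 were called lower in corpus callosum, Gap43 and Meg3, beside 0.505% of all genes called in either direction.

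The 9 monocyte markers summed to 10.51 to 10.99 in corpus callosum and 9.93 to 10.39 in cortex at P7, without overlap and with 0 called. Such a sum weighs the brightest marker most, here Lyz2, at 10.11 to 10.69 and 9.29 to 9.92. The mean of the 9 log2 levels did overlap, at 5.86 to 5.99 and 5.74 to 5.88. At P3 the monocyte markers summed to 10.79 to 11.51 against 10.05 to 10.30, with Lyz2 called higher. Of 9 markers of border-associated macrophages, the macrophages of meninges and vessels, Folr2 was called higher at P7 (1.95 ± 0.22, adjusted p 9.05e-05), and Folr2 and Ms4a7 at P3. Their sums overlapped at P7 (11.72 to 11.76 in corpus callosum, 11.62 to 11.73 in cortex). The regional difference was positive for 5 of these 9 markers at P7 (median 0.01) and for 8 of 9 at P3 (median 0.38). Mrc1 went the other way at both ages, without overlap. At P7 it stood at 10.06 to 10.85 in corpus callosum and 10.90 to 11.18 in cortex. At P3 it stood at 9.61 to 9.66 and 10.26 to 10.45. For the adult differences of Mmp2 and Adamts1, genes that vascular and stromal cells also express, the 12 endothelial and mural markers summed to 9.32 to 9.37 in corpus callosum and 9.38 to 9.44 in cortex. The 8 fibroblast markers summed to 8.26 to 8.29 and 8.10 to 8.17. Neither list's sums overlapped between the regions. The difference was positive for 8 of 8 fibroblast markers and for 7 of 12 endothelial and mural markers. In either list 0 were called, beside 0.00451% of all genes. The part of these cells in the results was not tested.

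**Figure D3:**
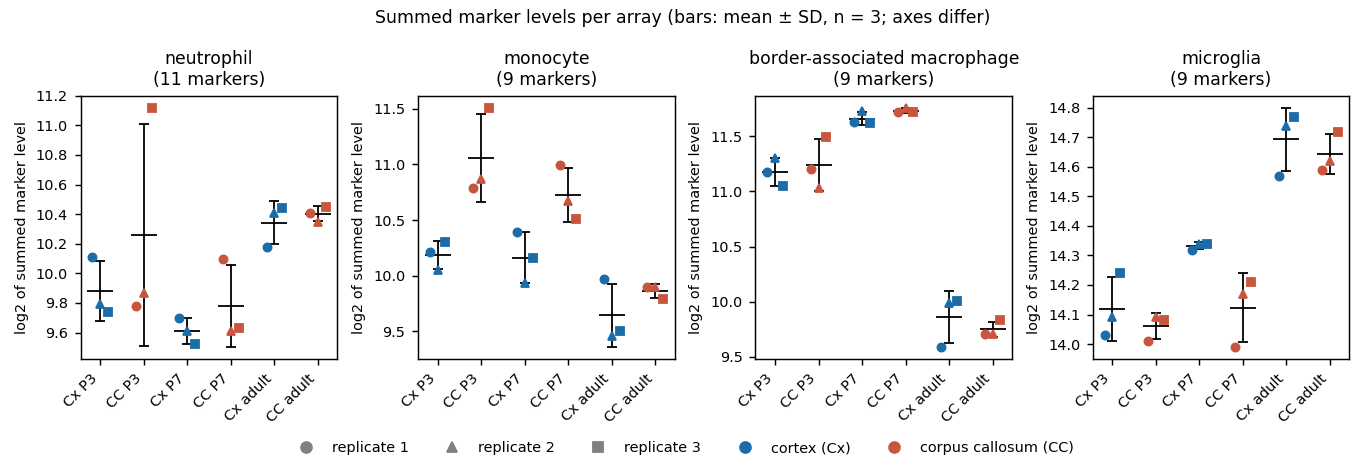
Log2 of the summed level of neutrophil, monocyte, border-associated macrophage and microglia markers (vertical axes, which differ) on each array of the 6 groups; shapes give the replicate number and bars the mean and SD. Callosal replicate 3 at P3 is highest for neutrophil (11.12) and monocyte (11.51) markers, and border-associated macrophage markers are lower in both adult groups.

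The next question was how the transcripts change from P7, when myelin is being formed, to adulthood. These comparisons use the same P7 arrays as the regional ones, so they are not independent of them. In corpus callosum Slpi fell by 2.23 on the log2 scale (SE 0.22, 4.68-fold, adjusted p 8.11e-07), from 8.11 ± 0.50 to 5.89 ± 0.12, and no adult array reached the P7 range. Plaur fell by 1.46 (SE 0.30, 2.75-fold, adjusted p 0.0021), from 7.61 ± 0.80 to 6.15 ± 0.07, also without overlap. Without P7 replicate 1 the Plaur difference was -1.0 and remained called (adjusted p 0.0103). Plau fell by 0.60 (SE 0.19, adjusted p 0.0369), from 9.32 ± 0.42 to 8.72 ± 0.33. Its call ended without P7 replicate 1 (-0.36, adjusted p 0.222), adult replicate 1 (-0.60, adjusted p 0.0807) or adult replicate 2 (-0.44, adjusted p 0.179). It also ended when the arrays were quantile-normalized again (-0.47, adjusted p 0.0812) or only the compared groups were fitted (adjusted p 0.117).

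In cortex Plau, Plaur and Slpi gave no call over the same interval. Slpi differed by -0.55 ± 0.22 (adjusted p 0.142), Plaur by -0.26 ± 0.30 (adjusted p 0.728) and Plau by -0.08 ± 0.19 (adjusted p 0.89). The contrast between regions was tested as such: the regional difference of Slpi changed by -1.68 ± 0.31 from P7 to the adult (adjusted p 0.0344), a comparison in which 0.203% of all genes were called and 0.198% called lower. This call was lost when any 1 of 10 of the 12 arrays was left out, and kept only without cortex replicate 1 or corpus callosum replicate 3 at P7. Where it was lost the value stayed between -1.74 and -1.41 and the adjusted p between 0.0532 and 0.106. With only the compared groups in the fit the adjusted p was 0.105. For Plaur the same contrast was -1.20 ± 0.43 (adjusted p 0.496) and for Plau -0.52 ± 0.27 (adjusted p 0.726), so a change of their regional difference with age was not shown. Folr2, a marker of border-associated macrophages, was also called in this contrast (-1.56 ± 0.31, adjusted p 0.0459), as 1 of that list's 9. The contrast was positive, opposite to Folr2, for 5 of those 9 markers (median 0.07). The part of these cells in the Slpi result was not tested.

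Mmp14 rose in both regions. In cortex its levels were 5.92, 5.61 and 6.09 at P7 and 7.40, 7.21 and 7.36 in the adult. In corpus callosum they were 6.20, 6.17 and 5.91 at P7 and 7.26, 7.04 and 7.05 in the adult. Every adult array stood above every P7 array of its region. The rise was 2.73-fold in cortex (1.45 ± 0.19, adjusted p 2.50e-05) and 2.04-fold in corpus callosum (1.03 ± 0.19, adjusted p 5.88e-04). It was called under each of the 12 alternatives in either region, with values of 1.32 to 1.56 and 0.93 to 1.08. The regional difference of -0.43 ± 0.26 between these rises was not called (adjusted p 0.787).

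Its partners in the activation of Mmp2 gave no call between P7 and the adult. Timp2 differed by 0.28 ± 0.14 in cortex (adjusted p 0.278) and by -0.22 ± 0.14 in corpus callosum (adjusted p 0.337). Mmp2 differed by 0.46 ± 0.19 in cortex (adjusted p 0.146), where the arrays did not overlap, and by 0.18 ± 0.19 in corpus callosum. Adamts1 differed by 0.10 ± 0.24 in cortex and by 0.52 ± 0.24 in corpus callosum (adjusted p 0.153), the latter without overlap. For Mmp9 and Mmp12 the 95% intervals ran from -0.38 to 0.33 and from -0.83 to 0.62 over both regions.

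In counts, 1 of 9 genes was called higher in the adult cortex (4.05% of all genes higher, 10.2% in either direction). In corpus callosum 1 was called higher (6.56% of all genes) and 3 lower (10.7%), 4 of 9 in all against 17.2% of all genes. The arrays did not overlap for 3 of 9 genes in cortex (27.3% of all genes) and for 6 of 9 in corpus callosum (34.6%). The medians of the 9 differences were 0.10 and -0.22, beside 0.03 and 0.05 over all genes. Microglia markers rose between P7 and the adult, 5 of 9 in cortex and 7 of 9 in corpus callosum. Border-associated macrophage markers fell, 4 of 9 in cortex and 6 of 9 in corpus callosum. Mrc1 among them changed by -4.23 and -4.44 on the log2 scale (SE 0.27 for both, adjusted p 3.68e-09 and 3.07e-09). Their summed level in cortex was between 11.62 and 11.73 at P7 and between 9.59 and 10.01 in the adult. In corpus callosum it was between 11.72 and 11.76 at P7 and between 9.71 and 9.83 in the adult. Monocyte markers gave 1 rise (Ccr2) and 2 falls of 9 in each region, Lyz2 and Plac8 in cortex and Lyz2 and Cd44 in corpus callosum. Of the 11 neutrophil markers only Csf3r was called, and it rose by 1.28 in both regions (SE 0.14). The difference was positive for 6 of the 11 in cortex (median 0.01) and for 3 of the 11 in corpus callosum (median -0.09). The part of these cells in the age differences was not tested.

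**Figure D4:**
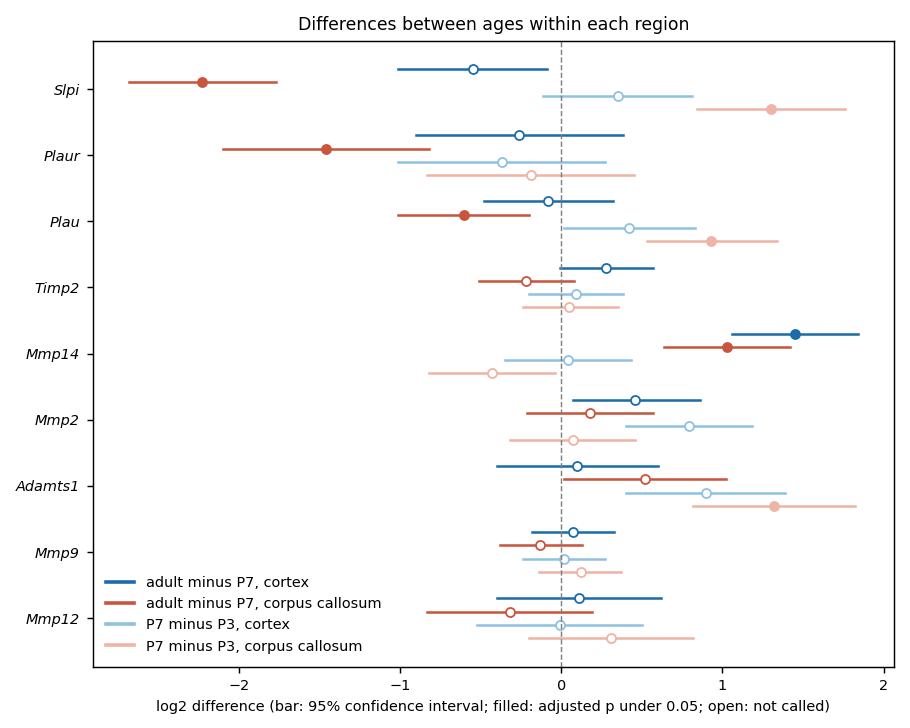
Log2 differences between ages within each region (horizontal axis) for the 9 genes; points are limma estimates, bars 95% confidence intervals, filled points called. Slpi and Plaur have filled points at -2.23 and -1.46 for adult minus P7 in corpus callosum, and Mmp14 has filled points at 1.45 and 1.03.

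Between P3 and P7, where age coincides with the array code, 3 genes were called higher in corpus callosum, 3 of 9 against 0.325% of all genes higher and 0.739% in either direction. Adamts1 stood at 6.33, 6.04 and 6.74 at P3 and at 7.37, 7.74 and 7.97 at P7, without overlap, and was 2.5-fold higher (1.32 ± 0.24, adjusted p 0.0172). Slpi was 2.47-fold higher at P7 (1.30 ± 0.22, adjusted p 0.0123), and Plau 1.91-fold higher (0.93 ± 0.19, adjusted p 0.0345), up from 8.43, 8.30 and 8.44 at P3. Each of the 3 calls was lost without at least 1 array, and with only the compared groups in the fit (adjusted p 0.123 for Adamts1 and Slpi, 0.172 for Plau). Adamts1 was lost without replicate 2 or 3 at P7 or replicate 1 or 2 at P3 (1.16 to 1.30, adjusted p 0.0625 to 0.1). Plau was lost without any array but replicate 3 at P3 (0.69 to 1.07, adjusted p 0.0679 to 0.11), and Slpi without replicate 2 at P7 (1.35, an adjusted p that rounds to 0.05). The arrays did not overlap for 3 of 9 genes, as for 18.8% of all genes.

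In cortex limma called 0 of 9 genes between P3 and P7, beside 0.884% of all genes, and 3 of 9 had an unadjusted p under 0.05, as did 13% of all genes. The arrays did not overlap for 4 of 9 (21.3% of all genes). Mmp2 came nearest, with 6.41, 6.38 and 6.60 at P3 and 6.93, 7.41 and 7.43 at P7 (0.79 ± 0.19, adjusted p 0.0517), and it was called without P7 replicate 1 (0.95, adjusted p 0.037) and under 4 other alternatives. Adamts1 followed with 0.90 ± 0.24 (adjusted p 0.0857), and 1.21 without P7 replicate 1 (adjusted p 0.0124). The change of the regional difference from P3 to P7 was called for 0 of 9 genes and for 0% of all genes, while 2 of 9, Slpi (0.95 ± 0.31) and Mmp2 (-0.72 ± 0.26), had an unadjusted p under 0.05, as did 5.68% of all genes. That from P3 to the adult was called for 0 of 9 genes and 0.18% of all genes. There 6 of 9 had an unadjusted p under 0.05 (13.7% of all genes), among them Mmp2 (-1.0 ± 0.26, adjusted p 0.111) and Mmp14 (-0.90 ± 0.26, adjusted p 0.14).

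Set in order of their means, the groups separated differently for each gene. The steps given here are between group means, and the nearest arrays of 2 groups lay closer than that. For Plaur the callosal groups at P3 and P7 overlapped and stood 0.98 above cortex at P3, which in turn stood 0.37 above cortex at P7. From there down each group overlapped the next. For Plau only callosum at P7 did not overlap its neighbour in this order, with a step of 0.60. Its lowest array and the highest of adult callosum both rounded to 9.04. Outside the order of neighbours, cortex at P7 (8.58 to 8.79) did not overlap cortex at P3 (8.11 to 8.37). For Mmp14 the adult groups overlapped each other, and the lower of their means was 0.59 above that of callosum at P3. The nearest arrays at that step were at 7.04 and 7.03. From callosum at P3 down each group overlapped the next, although callosum at P3 did not overlap cortex at P3. Adamts1 was highest in adult callosum, with a mean 0.52 above callosum at P7. Both P3 groups were lowest, and the higher of their means was 0.90 under cortex at P7. The nearest arrays at these steps were at 7.99 and 7.97, and at 6.76 and 6.74. Mmp2 was highest in adult cortex, 0.46 above cortex at P7, and lowest in cortex at P3. Timp2 showed a step of 0.16 between adult callosum and cortex at P7, and for Mmp9 and Mmp12 all neighbours overlapped.

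Other genes of extracellular proteolysis were followed in 3 lists. Of 34 measured metalloproteinases outside the 9 genes, 0 were called between the regions at any age. Of all genes 0.505%, 0.451% and 0.00451% were called at P3, P7 and in the adult. From P7 to the adult 1 rose and 1 fell in cortex, where 10.2% of all genes were called. In corpus callosum 3 rose and 1 fell, beside 17.2% of all genes called. Adam9, a membrane-bound sheddase, fell by 1.11 in cortex (SE 0.14, adjusted p 2.60e-05) and by 1.51 in corpus callosum (SE 0.14, adjusted p 5.15e-07). Adamts6 rose by 0.47 and 0.78 (SE 0.15 for both, adjusted p 0.049 and 8.77e-04). In corpus callosum Mmp23 rose by 0.88 (SE 0.13, adjusted p 1.00e-04) and Mmp7 by 0.48 (SE 0.11, adjusted p 0.00328), the latter at mean levels of 5.10 and 5.57, below the array medians. The list's median differences were 0.02 and 0.03, beside 0.03 and 0.05 over all genes.

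Of 21 serine proteases and genes of the plasminogen system, 1 was called between the regions. Plgrkt, a plasminogen receptor, was higher in corpus callosum at P3 (0.57 ± 0.12, adjusted p 0.0403), and in the adult it was higher than at P7 in cortex (0.77 ± 0.12, adjusted p 2.54e-04) and in corpus callosum (0.54 ± 0.12, adjusted p 0.00406). Klk8, the neuropsin gene, rose from P7 to the adult by 1.48 ± 0.14 in cortex (adjusted p 4.50e-07) and by 1.35 ± 0.14 in corpus callosum (adjusted p 1.33e-06). In corpus callosum the thrombin receptor gene F2r fell by 0.80 (SE 0.18, adjusted p 0.00428), and Lrp1, an endocytic receptor that clears protease and inhibitor complexes, fell by 0.70 (SE 0.17, adjusted p 0.00746). Counts from P7 to the adult were 2 higher and 0 lower in cortex and 2 higher and 2 lower in corpus callosum. Of all genes 10.2% and 17.2% were called there. The medians were 0.01 and 0.15, beside 0.03 and 0.05 over all genes.

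Of 31 further protease inhibitors, 0 were called between the regions. From P7 to the adult 2 rose and 1 fell in cortex, and 3 rose and 2 fell in corpus callosum, with medians of 0.06 and 0.17. Over all genes 10.2% and 17.2% were called, with medians of 0.03 and 0.05. Spint1, an inhibitor of membrane-bound serine proteases, rose by 1.23 ± 0.31 in cortex (adjusted p 0.014) and by 1.46 ± 0.31 in corpus callosum (adjusted p 0.00246). Tfpi, the inhibitor of the tissue factor pathway, fell by 0.46 and 0.54 (SE 0.13 for both, adjusted p 0.0316 and 0.00816). Wfdc17, which like Slpi belongs to the whey acidic protein family, fell by 0.89 in corpus callosum (SE 0.28, adjusted p 0.0344). Serpinb9 rose in cortex (0.67 ± 0.20, adjusted p 0.0351), and Serpinf1 (0.51 ± 0.16, adjusted p 0.0313) and Serpine3 (0.43 ± 0.14, adjusted p 0.0431) rose in corpus callosum. Between P3 and P7 none of the 3 lists had a called gene in either region.

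As a description of pattern, the 2 named genes whose log2 levels ran most like those of each called gene over the 18 arrays were found by Pearson's r. For Slpi they were Aplp2 (0.949) and Colec12 (0.943), for Plaur Sash1 (0.955) and Rab7b (0.947), and for Mmp14 Trpm2 (0.944) and Gsap (0.930). Adamts1 ran most like Hspa5 (0.900) and Srsf5 (0.878), and Plau like Os9 (0.817) and Plekhm1 (0.813). These coefficients share the 6 group means and the arrays and carry no test. Slpi and Plaur themselves had r = 0.73 over the arrays, Plau and Slpi 0.62, and Mmp14 and Slpi -0.38.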

How the data were processed

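The authors deposited log2 expression levels, 1 per probe set and array, summarised by RMA, the robust multi-array average, according to GEO's list of tools (per the submitters' processing notes). Its version and settings: not given in the sources used here. Log base 2 was taken from the range of 0.87 to 13.78. Per the labels' protocols, total RNA of the sorted cells was amplified before labelling. RMA aligns the distributions of the arrays and compresses large differences. Of 41345 probe sets, 23521 carried 1 gene symbol in GEO's platform annotation, 1814 several and 16010 none; the last 2 kinds were not used. The brightest probe set stood for each of 22180 genes. All 18 arrays entered 1 linear model with a mean per group in limma 3.58.1 (R 4.3.3; lmFit, contrasts.fit, eBayes; 12 residual degrees of freedom), with 10 comparisons, two-sided tests and Benjamini-Hochberg adjustment over all genes. The fit was tested on simulated data. The pathway and marker lists and the rule for naming genes in them (up to 3 called per direction and comparison, by size; called markers; the 2 genes most like each called member) were chosen, like the members, with earlier results of these data known; motifs were chosen later still. Alternatives changed the normalization, the filter on dim genes, the probe set, the variance prior, the arrays fitted and the replicate block, or left out each array. Marker sums are log2 of summed linear levels, in which the brightest markers weigh most. No 2 arrays held identical values. The number of arrays limits precision.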

Additional observations from a re-analysis of the deposited data

Results flagged for a closer look

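The regional difference of Slpi, corpus callosum minus cortex, changed by -1.68 log2 units from P7 to the adult (SE 0.31, limma adjusted p 0.0344), a difference between ages found by the test of that difference itself. The callosal value was above cortex by 1.69 at P7 and by 0.01 in the adult. The direction held without each of the 12 arrays in turn, while the call held without 2 of them. Groups of 3 arrays are too small for a search for outlying arrays.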

How the results depend on the processing

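Of 1222 alternative values of the members, 1179 kept their side of the threshold, 30 lost a call and 13 gained one. Where a value was called in the main fit or the alternative, 0 changed sign. Sign changes of differences called in neither fit were not counted. They did occur, as for Adamts1 between regions at P3 (-0.12, and -0.30 to 0.05 over the alternatives). Testing only genes above the median level called 2 members between regions at P3 and 2 at P7, 1 between P3 and P7 in cortex, and 1 for the regional difference of the adult minus P3. Fitting only the groups compared called 0 at P7, 0 between P3 and P7 in corpus callosum, and 0 for the regional difference of the adult minus P7; Slpi at P7 then had an adjusted p of 0.0655. Between P3 and P7 in cortex, quantile normalization again, the variance trend and the replicate block each called 1, Mmp2. Under the block no other count of members moved by over 1.5 times. Between ages the block was the replicate number alone. Same-numbered cortex arrays of P3 and P7 correlated at -0.02 to 0.05 and others at -0.05 to 0.05, with 1 of 3 best with its own number. For cortex at P7 and adult 1 of 3 was best with its own number, and for callosum at P3 and P7 2 of 3. For callosum at P7 and adult it was 3 of 3 (0.04 to 0.10, others -0.08 to 0.03). Same-numbered arrays of the regions correlated at 0.02 to 0.11 at P3, 0.05 to 0.13 at P7 and 0.06 to 0.3 in the adult, with 2, 3 and 2 of 3 best with their own number. Leaving out arrays gave 0 to 1 members at P3, 1 to 2 at P7, 0 to 2 and 0 to 3 from P3 to P7 in cortex and corpus callosum, and 0 to 1 for the change of the regional difference from P7, and from P3, to the adult. Over all genes the calls ranged from 16 to 273 at P3 (112 as reported), 40 to 150 at P7 (100), 1 to 3 in the adult (1), 72 to 270 and 5 to 506 from P3 to P7 in cortex (196) and corpus callosum (164), and 12 to 87 and 0 to 202 for the regional difference of the adult minus P7 (45) and minus P3 (40). The cause of these shifts was not tested. Signal near the array medians limits Mmp9 and Mmp12.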
